A study of Mus musculus with 250 samples.

Results

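The 10 genes described here encode parts of the cadherin-based junctions that hold epidermal cells together. They are the desmosomal cadherins Dsg1a, Dsg3, Dsc2 and Dsc3, the desmosomal plaque proteins Dsp, Pkp1 and Jup, the membrane protein Perp, and the classical cadherins Cdh1 and Cdh3. They were listed by symbol, with earlier results of these data known, and all 10 had a row among the 27003 gene symbols of the count table. Their reads were measured in 250 single epidermal cells from the tails of Lrig1CreER/Rosa-TdTomato mice, in which a Cre recombinase made from the Lrig1 gene marks Lrig1-expressing cells and their descendants with a red fluorescent protein. The cells of all groups shared this genotype, the lineage mark, a sort for Sca1 at the cell surface that was meant to enrich for the upper hair follicle, and the time label 8w_pw1, whose second element the labels do not spell out. They came from the distal memory region (8w_pw1_Distal, 81 cells), the wound bed (8w_pw1_Wb, 85 cells) and a control region without memory (8w_pw1_Ctrl, 84 cells).

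Each region was processed in 2 batches, and each combination of region and batch was 1 plate. The plates held 32 and 49 distal cells, 30 and 55 wound bed cells, and 28 and 56 control cells in batch 1 and batch 2. The libraries were made by Smart-Seq2, a full-length method without molecular identifiers, so a count is a read and not a molecule. A cell held between 3857 and 3119120 reads, with a median of 49298. Because no animal is named for any cell, a region was treated as a single sample, and the regions were set side by side without a test. Values are given for each batch side by side, and intervals cover counting error only.

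A desmosome joins the keratin filaments of neighbouring cells. Desmogleins and desmocollins cross the gap between the cells, plakoglobin (Jup) and plakophilins bind their tails, and desmoplakin (Dsp) ties this plaque to keratin. In interfollicular epidermis desmoglein 3 is known as a protein of the lower layers and desmoglein 1 as one of the upper layers. Adherens junctions use the classical cadherins instead, coupled through catenins to actin, and in mouse skin P-cadherin (Cdh3) is a protein of basal and follicle cells while E-cadherin (Cdh1) is found in all living layers.

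The epidermal label was checked against markers. All 7 basal epidermis markers and all 5 suprabasal markers had reads on each of the 6 plates. Over the 250 cells, reads of the measured immune, melanocyte, fibroblast and endothelial markers lay in 2, 3, 6 and 3 cells, and Cd3e, Cd207, Tyr, Col1a2 and Cdh5 were at 0. The 9 upper hair follicle markers, summed per cell, had a median of 804 CPM (reads scaled to 1000000 per cell) in distal cells, 191 CPM in wound bed cells and 2058 CPM in control cells. In batch 1, 4 distal cells with over 500000 reads held 72.8% of their plate's reads. In the control region, 18 of 28 cells of batch 1 and 6 of 56 cells of batch 2 gave over 5% of their non-mitochondrial reads to predicted genes over satellite and ribosomal repeats, against at most 2 cells on any other plate. For the 10 genes, log2 ratios against the control region are given with and without the repeat-rich cells.

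Together the 10 genes took a median of 1.34% of a cell's reads (lowest 0%, highest 8.53%). The median was 1.16% in distal cells, 1.6% in wound bed cells and 1.10% in control cells. Dsp and Perp alone supplied 79.6% of these reads. Per kilobase of exon, Perp averaged 3519 ± 1133 CPM over the 6 plates and Dsp 947 ± 460 CPM (SD, n = 6 plates, each plate value a mean over its cells). Dsc3 followed at 234 ± 93.2, Cdh1 at 133 ± 165, Dsg1a at 120 ± 68, Pkp1 at 50 ± 16.7, Dsg3 at 23.2 ± 4.26, Jup at 11.6 ± 5.15, Dsc2 at 9.48 ± 13.9 and Cdh3 at 1.81 ± 2.01 CPM per kilobase. Dsp lay above Dsc3 on every plate and Pkp1 above Dsg3, with no overlap of their ranges over plates. Neighbours in this order otherwise overlapped over the plates, namely Perp with Dsp, Dsc3 with Cdh1, Cdh1 with Dsg1a, Dsg1a with Pkp1, Dsg3 with Jup, Jup with Dsc2 and Dsc2 with Cdh3.

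**Figure D1:**
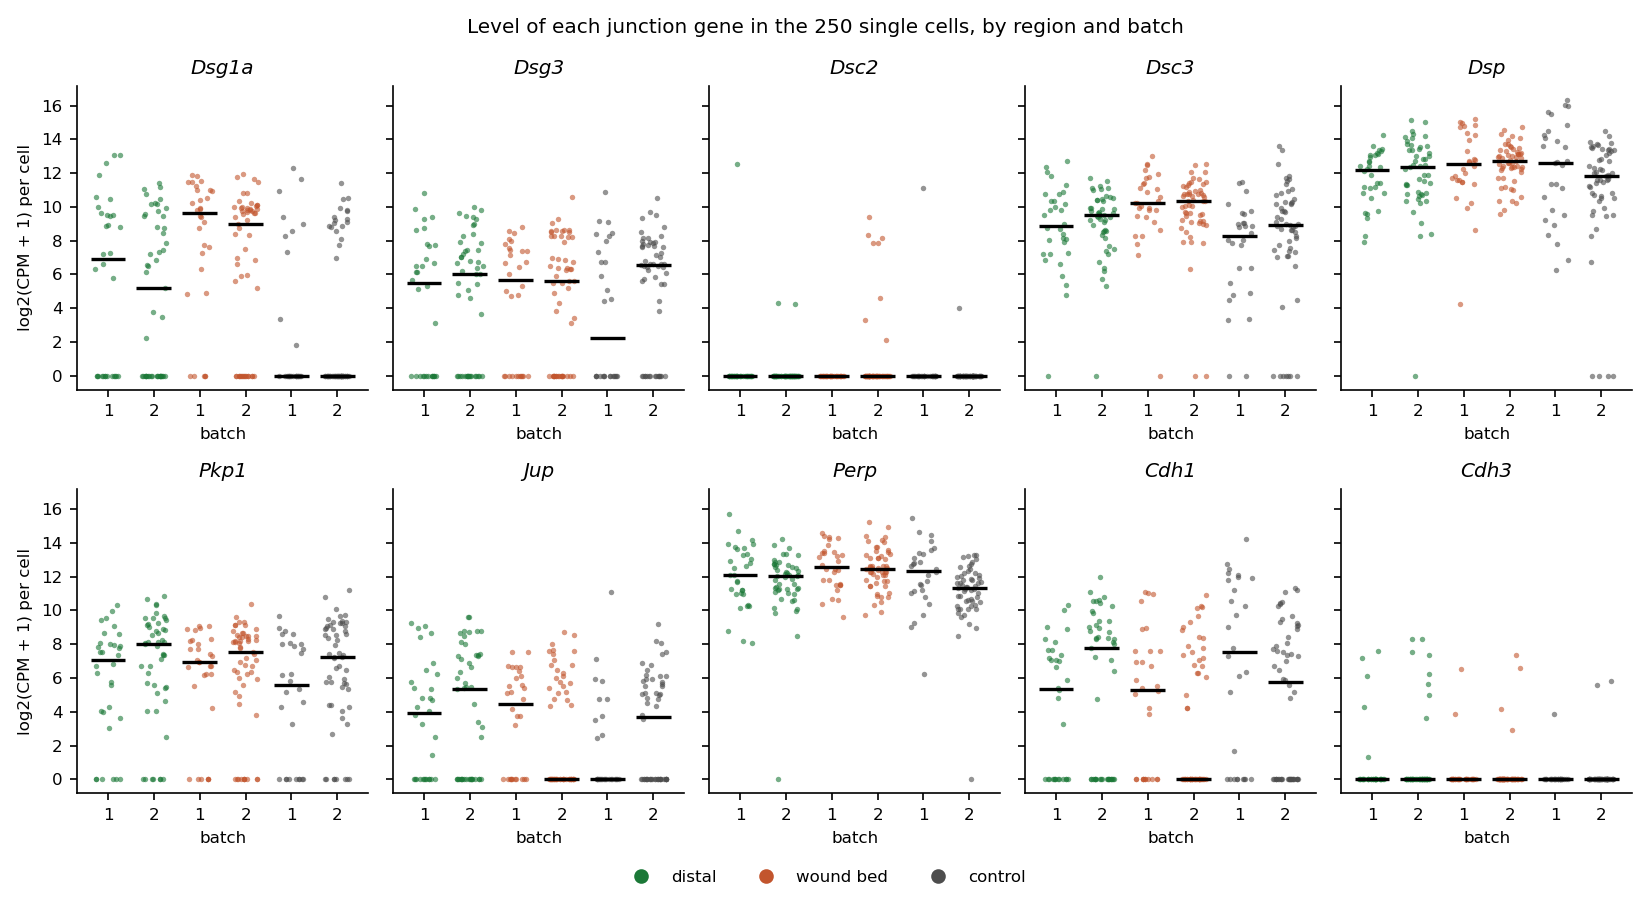
Level of each gene in each of the 250 cells, as log2(CPM + 1) per cell, for distal, wound bed and control cells in batch 1 and batch 2; each point is 1 cell and each bar the median of a plate. Dsp and Perp are high in nearly all cells, Dsg1a is split between cells at 0 and cells well above it, and Dsc2 and Cdh3 are at 0 in most cells.

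Dsg1a (ENSMUSG00000069441.3, chromosome 18, 20310811 to 20343350 on the plus strand of GRCm38) encodes desmoglein 1 alpha. It was detected in 19 of 32 and 28 of 49 distal cells, 25 of 30 and 39 of 55 wound bed cells, and 10 of 28 and 18 of 56 control cells in batches 1 and 2. When every cell was thinned to 10000 reads, the share with a Dsg1a read was 46.9% and 51.1% in distal cells, 75.9% and 69.4% in wound bed cells, and 25% and 32.7% in control cells. The pooled share was 71.8% in the wound bed (95% exact interval 60.5 to 81.4) and 30.1% of control cells (20.5 to 41.2). The distal share, 49.4% (37.8 to 61), lay between them. These intervals are over cells, and say nothing of the spread between animals. Thinning drew from all reads of a cell, those of mitochondrial genes and repeats included. Mitochondrial reads were 41.8% of the reads of distal batch 1 and 23.5% to 31.2% of those of the other plates. Equal depth is therefore not equal depth in the remaining genes.

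The median level had the wound bed highest in both batches. The median distal cell held 122 and 35.4 CPM of Dsg1a and the median wound bed cell 806 and 498 CPM, against 0 CPM on both control plates. The highest cell held 8724 CPM in the distal region, 3981 CPM in the wound bed and 5020 CPM in the control region, so the most Dsg1a-rich cells of the 3 regions overlapped and the regions differed in how many cells had any. Among cells with a read, the median was 722 and 439 CPM in distal cells, 978 and 860 CPM in wound bed cells, and 445 and 574 CPM in control cells, so in batch 2 the distal value was below the control value. Summed reads scaled by TMM, a normalisation that sets the plates' library sizes against each other, gave 874 and 306 CPM in the distal region and 1089 and 860 CPM in the wound bed, against 424 and 295 CPM in the control region. For distal against control cells the log2 ratio of scaled CPM plus 1 was 1.04 and 0.05, and without repeat-rich cells 3.41 and 0.04. The wound bed sums were 2.57-fold (95% counting interval 2.40 to 2.75) and 2.92-fold (2.74 to 3.11) those of the control region.

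Dsg1a sits beside near-identical copies, and reads may have been divided among them when they were assigned. Its closest copy in the table, Dsg1b, had reads in 9.09% to 31.2% of thinned cells per plate, and 38 of the 49 thinned cells with a Dsg1b read also had a Dsg1a read, where independence would give 24.5. Dsg1c had 39 reads in all. With every cell given the same weight, and per kilobase, Dsg1a made up 71.9% of all desmoglein reads in distal cells, 81.4% in wound bed cells and 51.3% in control cells. Dsg3 made up 15.4%, 10.5% and 22.7% in the same regions, and Dsg2, the desmoglein of simple epithelia, 0.725%, 0.666% and 10.4%. The control region therefore had the most mixed desmoglein content of the 3 regions at equal weight per cell, and the wound bed the least. In batches 1 and 2 the Dsg1a share was 79.1% and 61.9% in distal, 85.6% and 78.1% in wound bed, and 54.8% and 48.5% in control cells. The control Dsg2 share was uneven, at 4.57% and 15.1%. Repeat-rich cells held 92.8% of the Dsg1a reads of control batch 1, and no share leaves them out.

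Dsg3 (ENSMUSG00000056632.8, chromosome 18, 20510274 to 20547459, plus strand) encodes desmoglein 3. It showed no such order. At 10000 reads per cell it was detected in 43.8% and 53.3% of distal cells, 48.3% and 40.8% of wound bed cells, and 39.3% and 58.2% of control cells. The median cell held 44.2 and 64.4 CPM in distal cells, 51.4 and 47.9 CPM in wound bed cells, and 10.4 and 92.1 CPM in control cells. The control plates held both the lowest and the highest of these medians. In control batch 1, 7 of 18 repeat-rich cells had a Dsg3 read, with a median of 0 CPM, and 7 of the 10 other cells, with a median of 111 CPM, so the low control median was not seen in the other cells. The log2 ratio of scaled CPM plus 1 was 0.12 and -0.40 for distal against control cells and -0.70 and -0.58 for wound bed against control cells. Without repeat-rich cells these ratios were -0.15 and -0.34, and -0.94 and -0.60.

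Dsc3 (ENSMUSG00000059898.9, chromosome 18, 19960930 to 20002351, minus strand) encodes desmocollin 3, the desmocollin of the lower epidermal layers. It was the main desmocollin in these cells, with 87.2% of desmocollin reads per kilobase in distal cells, 95.7% in wound bed cells and 91.1% in control cells at equal weight per cell. Dsc1, the desmocollin of the upper layers, gave 6.43%, 3.14% and 6.47% in the same regions. The Dsc3 share was 79.7% in distal, 98.1% in wound bed and 82.6% in control cells of batch 1, and 94.9%, 94.1% and 93.2% in batch 2. In batch 1, Dsc2 took 12.5% in distal and 12.2% in control cells, from 1 cell on each plate. In thinned cells Dsc3 was detected in 87.5% and 97.8% of distal cells, 96.6% and 95.9% of wound bed cells, and 75% and 81.8% of control cells. Both control plates were thus below the other 4. Pooled over batches, the wound bed share was 96.2% (89.2 to 99.2) and the control share 79.5% (69.2 to 87.6), with the distal share at 93.5% (85.5 to 97.9).

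The median cell held 468 and 740 CPM of Dsc3 in distal cells, 1196 and 1313 CPM in wound bed cells, and 307 and 482 CPM in control cells. By this measure the wound bed was higher than the control region in each batch. Summed reads gave a smaller and less even difference for the wound bed, with log2 ratios of 1.30 and 0.36 against the control region. For distal against control cells the ratios were 2.11 and -0.59, opposite in sign. In distal batch 1, the 4 cells with over 500000 reads held 86.7% of the Dsc3 reads, and without them the batch 1 ratio was 0.69. In control batch 1, repeat-rich cells held 89.9% of the Dsc3 reads, with a median of 459 CPM against 121 CPM in the other cells. Without repeat-rich cells the ratios were 4.0 and -0.46 for distal, and 3.20 and 0.49 for wound bed, against control cells.

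Dsc2 (ENSMUSG00000024331.11, chromosome 18, 20030633 to 20059554, minus strand) encodes desmocollin 2, which is widespread in epithelia. It had reads in only 13 of the 250 cells: 1 and 2 distal cells, 0 and 8 wound bed cells, and 1 and 1 control cells in batches 1 and 2. One distal cell of batch 1 held 1546 of its 1709 reads, at 5940 CPM, beside 495 reads of Dsc3. In the wound bed all 8 cells were on the batch 2 plate, with 1 to 65 reads each. At 10000 reads 0 of 29 wound bed cells of batch 1 had a read, which allows a share of up to 10.3%. Dsc2 was under the detection limit used for comparisons between regions and has no ratio reported here.

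Dsp (ENSMUSG00000054889.10, chromosome 13, 38151294 to 38198577, plus strand) encodes desmoplakin. It had reads in 245 of the 250 cells, and 4 of the 5 cells without one were on the control batch 2 plate. The median cell held 4644 and 5329 CPM in distal cells, 5893 and 6640 CPM in wound bed cells, and 6299 and 3675 CPM in control cells. The ranges of single cells overlapped throughout, from 0 to 36641 CPM in distal cells, 18 to 38124 CPM in wound bed cells and 0 to 83469 CPM in control cells. The log2 ratio for distal against control cells was -1.35 in batch 1 and 0.33 in batch 2. Repeat-rich cells held 90.0% of the Dsp reads of control batch 1, and without such cells these ratios were 0.56 and 0.39. For wound bed against control cells the ratios were -0.45 and 0.46, and without repeat-rich cells 1.45 and 0.46.

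Pkp1 (ENSMUSG00000026413.12, chromosome 1, 135871395 to 135919207, minus strand) encodes plakophilin 1, which binds desmosomal cadherins and desmoplakin and is typical of stratified epithelia. In thinned cells it was detected in 62.5% and 68.9% of distal cells, 65.5% and 73.5% of wound bed cells, and 46.4% and 65.5% of control cells. The median cell held 138 and 259 CPM in distal cells, 122 and 186 CPM in wound bed cells, and 48.3 and 151 CPM in control cells. The regions overlapped, and the wound bed and control sums were nearly equal, with log2 ratios of -0.15 and -0.08. The ratio of 1.23 for distal against control cells in batch 1 was not matched in batch 2 (-0.19), and 1 distal cell held 65% of that plate's Pkp1 reads. Without repeat-rich cells the ratios were 1.68 and -0.07 for distal, and 0.31 and -0.05 for wound bed, against control cells. At equal weight per cell, Pkp1 supplied 79.2% of plakophilin reads per kilobase in distal cells, 86.1% in wound bed cells and 66.9% in control cells. Its copy Pkp3 supplied almost all of the rest. By batch these Pkp1 shares were 80.4% and 78.8% in distal, 76.2% and 90.8% in wound bed, and 46.3% and 74.7% in control cells. In summed reads the Pkp1 shares were 92.2%, 83.6% and 59.8%. By batch the summed shares were 95.7% and 78.5% in distal, 83.5% and 83.6% in wound bed, and 47.5% and 70.2% in control cells. By either measure the distal share was above the wound bed share in batch 1 only.

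Jup (ENSMUSG00000001552.14, chromosome 11, 100368958 to 100397763, minus strand) encodes plakoglobin, the armadillo protein shared by desmosomes and adherens junctions. It was sparse. At 10000 reads it was detected in 25% and 44.4% of distal cells, 41.4% and 26.5% of wound bed cells, and 14.3% and 25.5% of control cells. Scaled sums were 84.2 and 98.4 CPM in the distal region and 38.2 and 60.1 CPM in the wound bed, against 61 and 36.4 CPM in the control region. The distal sums were above both other regions in each batch, by log2 ratios of 0.46 and 1.41 against the control region and 1.12 and 0.70 against the wound bed. In control batch 1, 1 cell held 63.7% of the Jup reads, and without the top cell of each plate the ratios against the control region were 1.52 and 1.45. Without repeat-rich cells they were -0.42 and 1.63, so the batch 1 value had the opposite sign once 18 control and 2 distal cells were left out. The top Jup cell of control batch 1, with 137 reads, was not repeat-rich and stayed in whenever repeat-rich cells were left out. Of the 10 control cells then left in batch 1, 3 had a Jup read, and no value leaves out both the top and the repeat-rich cells. For wound bed against control cells the Jup ratios were -0.66 and 0.71, and without repeat-rich cells -1.54 and 0.84. Jup was also set against its close relative Ctnnb1, the beta-catenin of adherens junctions. Per kilobase and at equal weight per cell, Jup made up 12.6% of the pair's reads in distal cells, 7.05% in wound bed cells and 4.46% in control cells. In summed reads these shares were 10.8%, 6.90% and 2.18%.

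Dsp and Jup are bound partners in the plaque, yet Dsp was far more abundant per kilobase (947 against 11.6 CPM). Promoter sequences from RefSeq (GRCm38.p6) were examined for only 2 of the 10 members, Jup and Dsp. Those of the other members were not examined, so nothing is said of them here. The 250 bases before each start site are shown for this pair at opposite ends of plaque abundance, on the strand of the gene, with GC boxes (GGGCGG) and CCAAT boxes (CCAAT) on either strand in capitals. The Jup window is chr11:100397791-100398040 on the minus strand and the Dsp window is chr13:38151044-38151293 on the plus strand.
Jup: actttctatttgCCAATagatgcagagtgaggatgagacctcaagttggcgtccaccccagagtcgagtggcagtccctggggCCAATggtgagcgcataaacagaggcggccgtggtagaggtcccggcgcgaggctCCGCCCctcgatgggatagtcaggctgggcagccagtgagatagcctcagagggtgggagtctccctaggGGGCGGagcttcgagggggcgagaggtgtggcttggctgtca
Dsp: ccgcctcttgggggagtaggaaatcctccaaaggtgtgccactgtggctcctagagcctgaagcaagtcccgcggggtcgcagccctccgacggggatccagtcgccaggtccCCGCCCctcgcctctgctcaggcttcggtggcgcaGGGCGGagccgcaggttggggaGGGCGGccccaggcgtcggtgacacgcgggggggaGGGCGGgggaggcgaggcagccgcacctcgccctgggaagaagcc
The Jup window had 62% G and C and the Dsp window 72.4%, beside a median of 52.4% over 32851 mouse promoter windows of the same length. Dsp had 4 GC boxes, 3 of them on the printed strand, and no CCAAT box. Jup had 1 GC box on each strand and 2 CCAAT boxes. A GC box was present in 32.7% and a CCAAT box in 33.8% of these 32851 windows, which may not cover every mouse promoter. Neither the Jup nor the Dsp window held the TATA box letters TATAAA (12.4% of the 32851 windows) or the AP-1 letters TGANTCA (6.75%), searched on both strands. None of these motifs overlapped another. These are matches of letters and not measured binding sites.

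Perp (ENSMUSG00000019851.8, chromosome 10, 18845020 to 18857073, plus strand) encodes a p63 and p53 target of the desmosomal membrane that desmosomes of mouse skin need. It had reads in 248 of the 250 cells. The median cell held 4421 and 4281 CPM in distal cells, 6111 and 5720 CPM in wound bed cells, and 5301 and 2605 CPM in control cells. The wound bed plates had the highest medians, but single cells of all regions overlapped, between 0 and 54828 CPM in distal cells, 774 and 38832 CPM in wound bed cells, and 0 and 45150 CPM in control cells. For wound bed against control cells the log2 ratio was 0.03 in batch 1 and 1.16 in batch 2, and for distal against control cells 0.48 and 0.21. In control batch 1, repeat-rich cells held 66.6% of the Perp reads, with a median of 6604 CPM against 2250 CPM in the other cells. Without repeat-rich cells the ratios were 0.21 and 1.14, and 0.64 and 0.27.

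Cdh1 (ENSMUSG00000000303.12, chromosome 8, 106603351 to 106670246, plus strand) encodes E-cadherin. Its detection was alike over the plates, at 40.6% and 55.6% of thinned distal cells, 44.8% and 38.8% of wound bed cells, and 53.6% and 45.5% of control cells. Its level stood apart on 1 plate. The control plate of batch 1 had 4712 scaled CPM, while the other 5 plates held between 169 and 352 scaled CPM. Among its cells with a read the median was 1534 CPM, against 125 to 507 CPM on the other plates.

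The log2 ratios for Cdh1 in batch 1 were -4.24 for distal and -4.20 for wound bed cells against control cells, while in batch 2 they were 0.27 and -0.79. In control batch 1 the top cell held 40% of the Cdh1 reads, and repeat-rich cells held 45.1%. Without the top cell of each plate the batch 1 ratios were -4.29 and -3.99, and without repeat-rich cells -4.79 and -4.74. The top cell is not repeat-rich, and no value leaves out both at once. Among the 10 cells of control batch 1 that were not repeat-rich, 4 had a Cdh1 read. In the other batch the ratios were not of this size. Without the top cells the wound bed values, -3.99 and -1.09, passed the size used here in both batches, and the batch 2 call rests on leaving those cells out.

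Cdh3 (ENSMUSG00000061048.8, chromosome 8, 106510891 to 106557297, plus strand) encodes P-cadherin and lies next to Cdh1. It was the rarest of the 10 by level, with 126 reads in 22 cells: 5 and 8 distal cells, 2 and 4 wound bed cells, and 1 and 2 control cells in batches 1 and 2. The share was 16% of distal cells (8.83 to 25.9), 7.06% of wound bed cells (2.63 to 14.7) and 3.57% of control cells (0.743 to 10.1), with overlapping intervals. Reads numbered 53 and 40 on the distal plates, 13 and 6 on the wound bed plates, and 6 and 8 on the control plates. One distal cell held 45 of the 53 reads of its plate. All 13 distal cells with Cdh3 also had reads of Krt14, a basal keratin, as did 79% of all distal cells, and 11 of the 13 had Cdh1 reads, as did 59.3% of all distal cells. At 10000 reads Cdh3 remained detectable in 7 of 77 distal, 3 of 78 wound bed and 1 of 83 control cells. Against Cdh1, per kilobase and at equal weight per cell, Cdh3 made up 5.37% of the pair's reads in distal cells, 1.97% in wound bed cells and 0.151% in control cells. By batch the Cdh3 share was 7.71% and 4.83% in distal, 1.09% and 2.81% in wound bed, and 0.0232% and 0.541% in control cells. The control batch 1 share is taken against the high Cdh1 level of that plate.

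**Figure D2:**
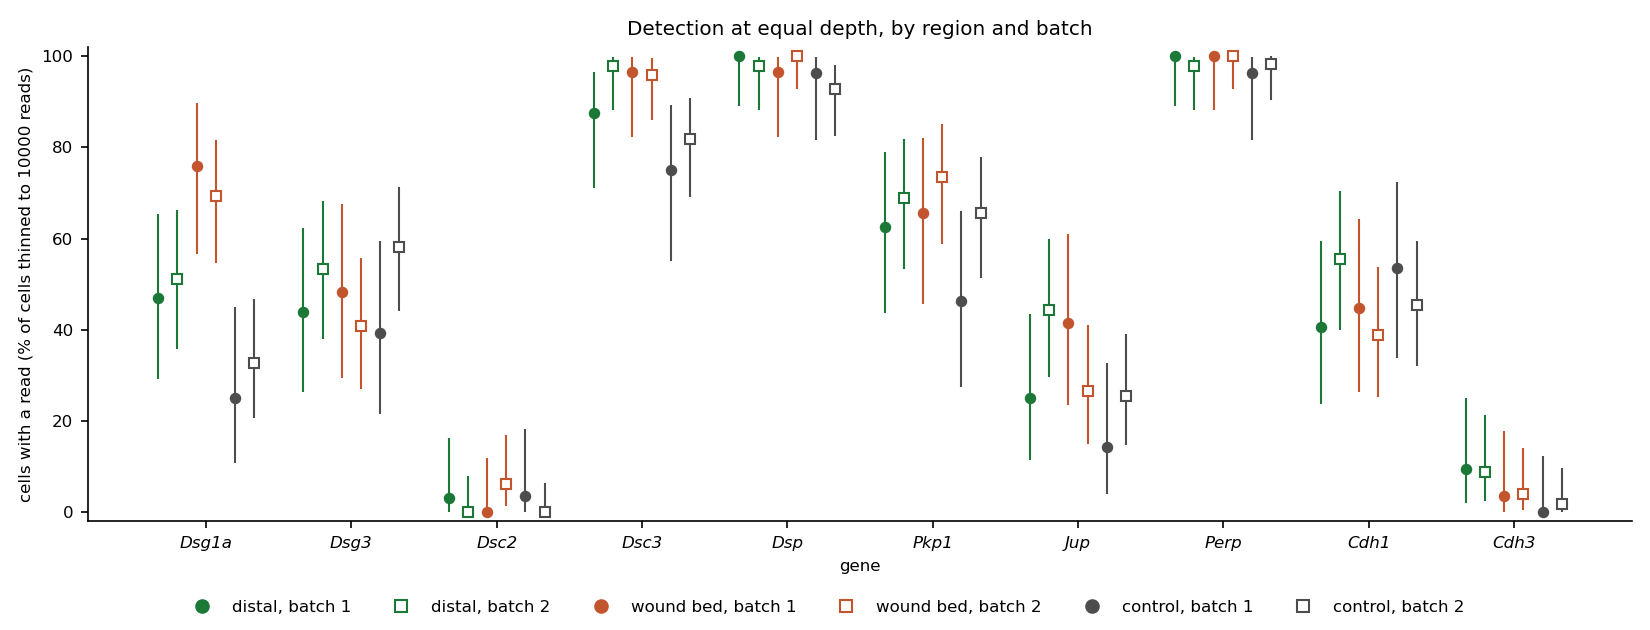
Share of cells with a read of each gene after every cell was thinned to 10000 reads (percent; vertical lines are 95% exact binomial intervals, counting error only), for distal, wound bed and control cells in batch 1 (filled) and batch 2 (open). Dsg1a lies between 69.4% and 75.9% on the wound bed plates, 46.9% and 51.1% on the distal plates, and 25% and 32.7% on the control plates, Dsc3 is lower on both control plates than on the other 4, and Dsc2 and Cdh3 are near the floor on all plates.

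A difference between regions was called when the log2 ratio of scaled CPM plus 1 was at least 1 in size with the same sign in both batches. A gene entered a comparison if, in both batches, it had reads in no fewer than 10% of the cells of a compared region. For distal against control cells, 1 of the 9 members considered met this rule, and so did 14.2% of the 6356 genes considered. The member was Cdh3, which was higher in distal cells with log2 ratios of 1.57 and 2.24. Scaled CPM were 7.01 and 11.3 in distal cells against 1.70 and 1.6 in control cells, and the counting intervals of the folds were wide, 1.77 to 11.7 and 3.26 to 17.5. Cdh3 passed the detection limit only through the distal cells, so a higher value there was favoured by that limit. Without repeat-rich cells the ratios were 3.05 and 2.31. With cells thinned to 10000 reads, Cdh3 was below the detection limit and no member met the rule. Over the 9 members the median ratio was 0.48 in batch 1 and 0.21 in batch 2, beside 0.23 and -0.07 over all genes considered. By direction, 8.07% of all genes met the rule as higher and 6.09% as lower. In batch 1 taken alone, 4 of the 9 members were past the size as higher and 2 as lower, beside 35.7% and 25.8% of all genes, and in batch 2 alone 2 were higher and 0 lower, beside 19.5% and 22%.

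For wound bed against control cells, 1 of 8 members met the rule, beside 16.1% of 5776 genes. The member was Dsg1a, which was higher in wound bed cells by 1.36 and 1.54. The median over the 8 members was -0.30 and 0.41, beside 0.03 and -0.03 over all genes considered. By direction, 7.83% of all genes met the rule as higher and 8.24% as lower. In batch 1 alone 2 of the 8 members were higher and 1 lower, beside 28.9% and 27.8% of all genes, and in batch 2 alone 2 were higher and 0 lower, beside 20.8% and 23.3%. Among cells with at least 2000 detected genes (9 and 17 wound bed cells, 9 and 27 control cells) the Dsg1a ratios were 0.32 and 1.19, and the rule was not met. In control batch 1, 8 of 18 repeat-rich cells had a Dsg1a read and held 92.8% of the plate's Dsg1a reads, against 2 of the 10 other cells, and without repeat-rich cells the ratios were 3.73 and 1.5. For distal against wound bed cells, 0 of 9 members met the rule, beside 14.9% of 6285 genes, and the median member ratio was 0.45 and -0.10, beside 0.25 and -0.02. By direction, 9.59% of all genes met the rule as higher in distal cells and 5.28% as lower. In batch 1 alone 2 of the 9 members were higher and 0 lower, beside 32.6% and 20.6% of all genes, and in batch 2 alone 2 were higher and 1 lower, beside 26.5% and 26.3%. Dsg1a was lower in distal cells in both batches there, by -0.32 and -1.49. In all 3 comparisons the share of members meeting the rule was close to, or below, the share of all genes, so the set as a whole did not stand out.

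**Figure D3:**
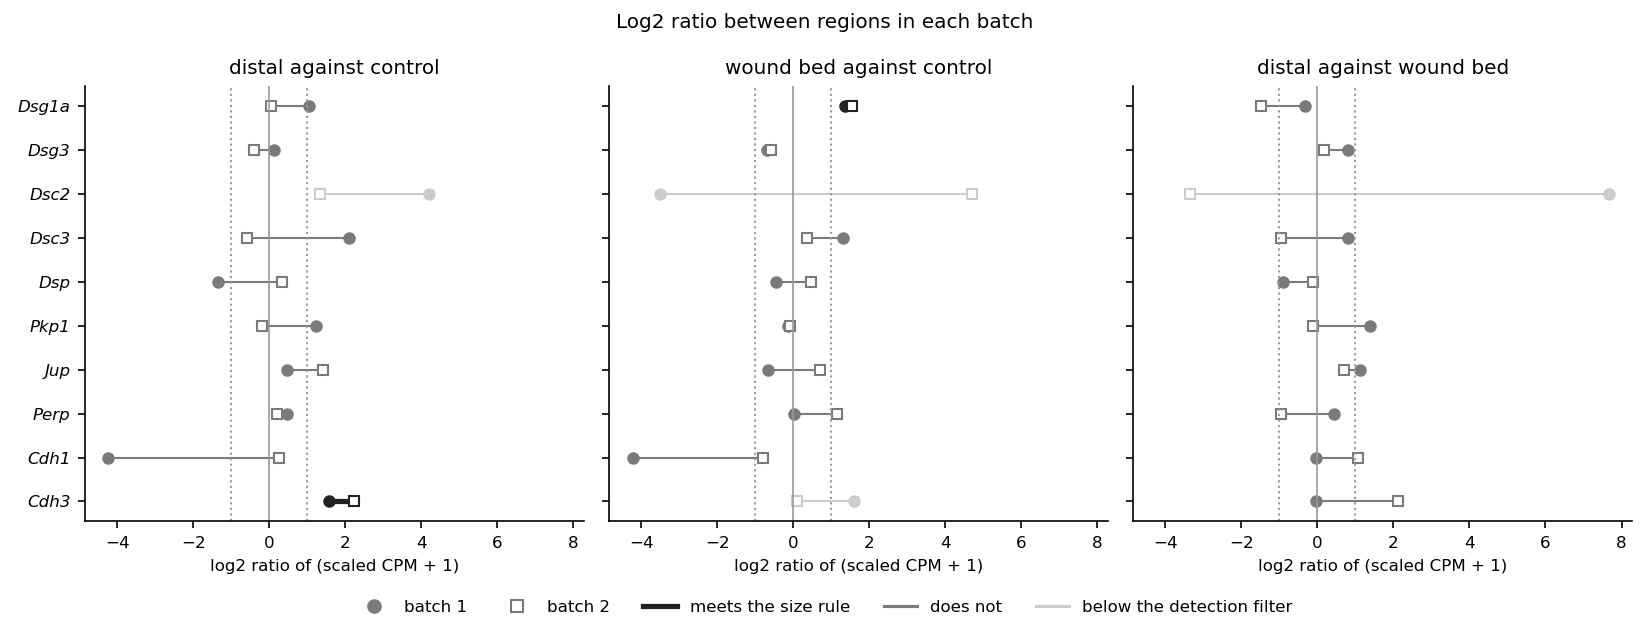
Log2 ratio of scaled CPM plus 1 for each gene in batch 1 (filled circles) and batch 2 (open squares), for distal against control, wound bed against control and distal against wound bed cells; dotted lines mark a ratio of 1 in size, and pale symbols mark genes under the detection limit. Cdh3 in the left panel and Dsg1a in the middle panel are past the line in both batches, while the batch 1 values of Cdh1 near -4.2 are not matched in batch 2.

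Summed suprabasal markers were also highest in the wound bed, but the markers differed among themselves. The 5 suprabasal markers (Krt1, Krt10, Krtdap, Sbsn and Mt4), summed per cell, had plate medians of 2202 and 4408 CPM for distal and 16629 and 10400 CPM for wound bed plates, against 1509 and 3187 CPM for control plates. Their median log2 ratio for wound bed against control cells was 1.08 and 0.98, and 1 of the 5, Mt4, met the rule (3.6 and 1.61). Krt10 had ratios of 1.08 and 0.87 and Krtdap 1.40 and 0.98, while Krt1 (-0.15 and 1.6) and Sbsn (0.81 and -2.03) had opposite signs in the batches. The 7 basal markers had medians of -0.23 and 0.69. Krt10, the first keratin of cells that leave the basal layer, was detected at 10000 reads in 44 of 77 distal, 61 of 78 wound bed and 34 of 83 control cells. Among cells with Krt10 reads, Dsg1a was detected in 68.2% of distal cells (52.4 to 81.4), 82% of wound bed cells (70 to 90.6) and 64.7% of control cells (46.5 to 80.3). The 3 intervals overlapped, and the wound bed and control shares differed less there than among all cells. Among cells without Krt10 reads the shares were 24.2% (11.1 to 42.3) of 33 distal, 35.3% (14.2 to 61.7) of 17 wound bed and 6.12% (1.28 to 16.9) of 49 control cells. The part of cell layer in the Dsg1a difference was not tested further, and fewer cells with the gene and less RNA per cell cannot be told apart in summed reads.

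**Figure D4:**
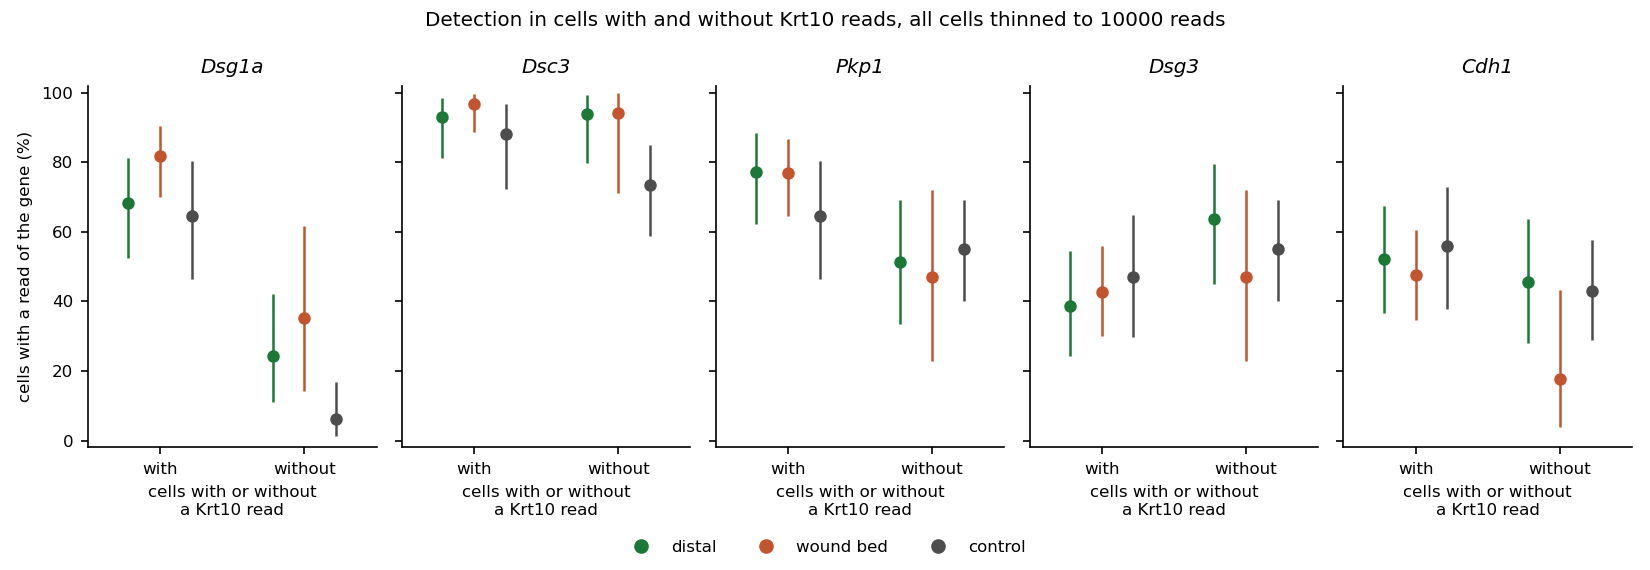
Share of cells with a read of Dsg1a, Dsc3, Pkp1, Dsg3 and Cdh1 among cells with and without Krt10 reads, in distal, wound bed and control cells, all thinned to 10000 reads (percent; lines are 95% exact binomial intervals). Pooled over batches, Dsg1a is detected in 64.7% to 82% of cells with Krt10 reads and in 6.12% to 35.3% of cells without. Pooled in the same way, Pkp1 is higher and Dsg3 lower with Krt10 in each region. On single plates this did not always hold. Pkp1 was at 65.2% with and 66.7% without Krt10 in wound bed batch 1, and Dsg3 at 58.3% and 58.1% in control batch 2.

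Pooled over batches, Dsg3 went the other way from Dsg1a with respect to layer, but not on every plate. It was detected in 38.6% of distal, 42.6% of wound bed and 47.1% of control cells with Krt10 reads, against 63.6%, 47.1% and 55.1% of cells without, and within each region the intervals overlapped. In control batch 2 the shares were alike, 58.3% with and 58.1% without. Of the 238 thinned cells, 104 had reads of both Dsg3 and Krt14 where independence would give 91.8. Dsg1a and Dsg3 shared 49 cells, where independence would give 57.5. Perp averaged 86.4 thinned reads in distal, 92.5 in wound bed and 77 in control cells with Krt10 reads, against 35.5, 53.9 and 31.7 in cells without, and was higher with Krt10 reads on each of the 6 plates. Dsp averaged 84.3, 94.8 and 127 thinned reads with Krt10 reads and 55.5, 86.3 and 69.3 without. In wound bed batch 2 it went the other way, at 75.2 with and 95.3 without.

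Co-expression was described by Spearman's rho across the thinned cells of each plate, averaged over the 6 plates. Cells of a plate share a batch and a region, and no p-value is given. Of the 467 genes with reads in at least 25% of the thinned cells of every plate, 7 were members. Dsc2, Jup and Cdh3 were too sparse. All 108811 pairs of the 467 genes had a median rho of 0.03, with 5% of pairs below -0.11 and 5% above 0.18. The 21 member pairs had a median of 0.05, and 7 of them lay above 0.18.

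The strongest pairs joined Dsg1a, Perp and Dsp. Dsg1a and Perp had a mean rho of 0.57 (0.42 to 0.73 over plates), Dsp and Perp 0.46 (0.30 to 0.64), and Dsg1a and Dsp 0.31 (0.10 to 0.45). Dsc3 followed Dsg1a at 0.28 (0.18 to 0.39) and Perp at 0.22 (0.13 to 0.43). Each of these pairs was positive on all 6 plates, in every region and batch. Pkp1 had 0.24 with Perp (0.09 to 0.39) and 0.24 with Dsg1a, which ranged from -0.06 to 0.40. Dsg3 was weakly negative on average with Perp (-0.13), Dsg1a (-0.11) and Dsp (-0.10). Over plates these ranged from -0.24 to 0.09, -0.23 to 0.07 and -0.30 to 0.10, so the sign was mixed. Of all pairs, 3.62%, 5.12% and 7.28% lay below these means. Cdh1 stayed between -0.02 and 0.09 with the 6 other members, between the 5% limits of all pairs.

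The same split appeared against layer markers. Against the summed suprabasal markers, mean rho was 0.59 for Dsg1a, 0.58 for Perp, 0.29 for Dsc3 and 0.23 for Dsp, positive on every plate for each. Against the 7 basal markers it was -0.44 for Perp, -0.35 for Dsg1a and -0.20 for Dsp, negative on every plate, and 0.31 for Dsg3, positive on every plate. Cdh1 had 0.03 and -0.04. Against Mki67, a gene of cycling cells, Perp had -0.33, Dsg1a -0.27, Dsp -0.23 and Pkp1 -0.18, all negative on every plate.

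**Figure D5:**
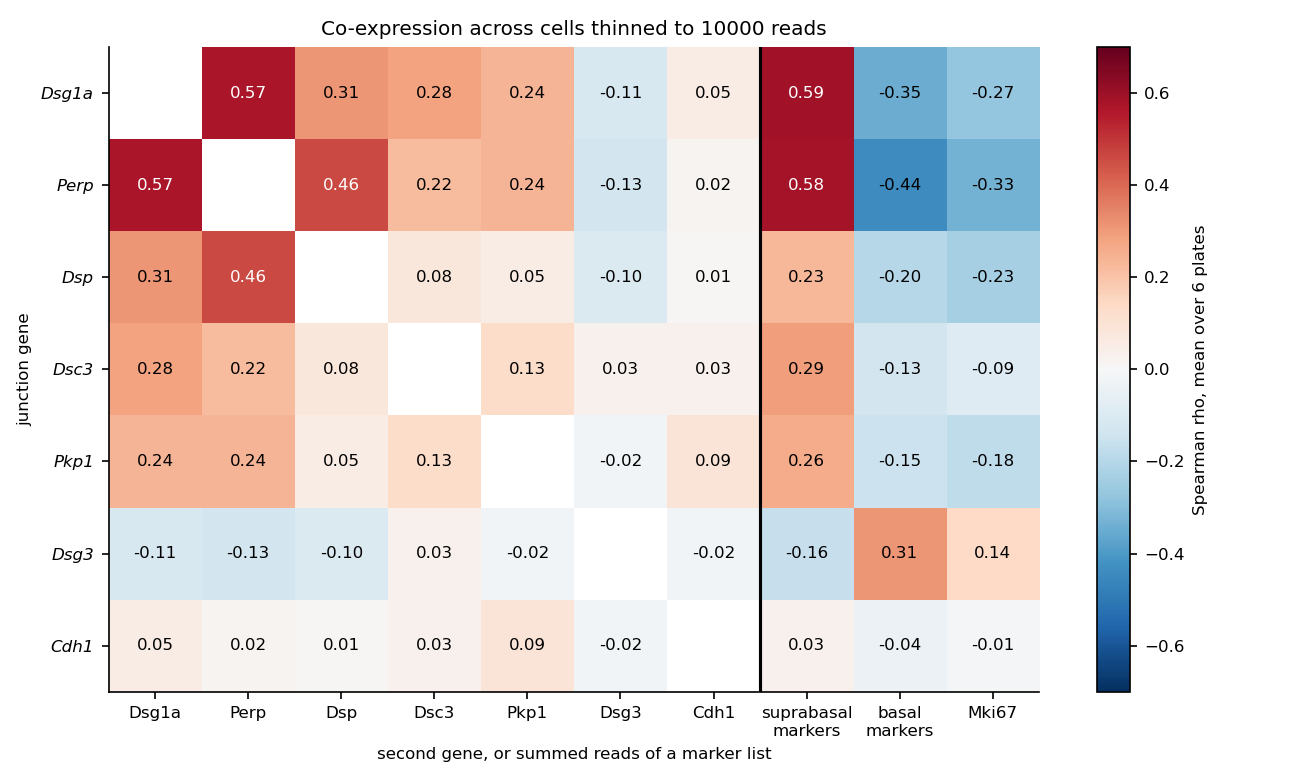
Spearman rho, averaged over 6 plates, between 7 junction genes across cells thinned to 10000 reads (left of the line), and between each of them and the summed suprabasal markers, the summed basal markers and Mki67 (right of the line). Dsg1a, Perp and Dsp are positive with each other and with the suprabasal markers (0.23 to 0.59), Dsg3 is positive with the basal markers (0.31), and Cdh1 is near 0 throughout.

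The genes most alike each member were taken as the 3 with the highest mean rho over the 6 plates, among the 467. For Dsg1a they were Krt10 (0.63), Perp (0.57) and Dapl1 (0.53), and for Perp they were Krt10 (0.59), Dsg1a (0.57) and Krtdap (0.48), a secreted peptide of differentiating keratinocytes. For Dsp they were Perp (0.46), Dsg1a (0.31) and Sptssa (0.29), a subunit of serine palmitoyltransferase. Dsc3 was most like Krt10 (0.30), Cct8 (0.30) and Dsg1a (0.28), and Pkp1 most like Lgals3 (0.38), Trim29 (0.32) and Krtdap (0.30). For Dsg3 they were Tgfbi (0.28), Dst (0.26) and Aopep (0.26), of which Dst encodes a hemidesmosome plakin in basal cells. For Cdh1 they were Rbm39 (0.29), Pls3 (0.29) and Tomm22 (0.23). Values near 0.3 or below in sparse counts are given as a description only.

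The other genes of these junctions were read from lists. Of 10 other desmosome genes, 6 were considered in each comparison. Dsg2 met the rule as lower in both regions against the control region, with log2 ratios of -1.10 and -3.65 for the distal region and -3.20 and -3.47 for the wound bed. It had 150 and 25 reads on the distal plates and 7 and 27 on the wound bed plates, against 154 and 501 on the control plates. Without repeat-rich cells the batch 1 ratios were 3.06 and 0.97, of the opposite sign, while the batch 2 ratios were -3.63 and -3.53. Pkp3 was lower in wound bed than in control cells (-2.58 and -1.17), and in cells with at least 2000 genes its batch 2 ratio was -0.89. Evpl, the plakin envoplakin of the cornified envelope, was lower in wound bed than in control cells (-1.2 and -2.97), and higher in distal than in wound bed cells (2.91 and 1.53). It rested on 5 and 15 wound bed reads, and without the top cell of each plate the wound bed against control ratios were -0.74 and -2.89, and without repeat-rich cells -0.34 and -3.04. In cells with at least 2000 genes the distal against wound bed ratios were 3.30 and 0.87. Dsg1b was higher in distal than in control cells (2.44 and 1.33), but 1 distal cell held 79.2% of its plate's reads, and without cells over 500000 reads the batch 1 ratio was 0.23.

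Of 11 other adherens junction genes, 8, 7 and 8 were considered in distal against control, wound bed against control and distal against wound bed. Ctnna1, the alpha-catenin that links cadherins to actin, met the rule as higher in distal than in control cells (1.48 and 1.37) and than in wound bed cells (1.38 and 2.18). On each distal plate 1 cell held most of the Ctnna1 reads, 66.8% and 73.4%, and without the top cell of each plate the ratios were 0.37 and -0.21, and 1.02 and 0.81. Vcl, the actin-binding vinculin, was higher in distal than in wound bed cells, with 223 and 68 reads against 1 and 0. The fold was 53.3 in batch 1, with a counting interval of 9.47 to 2115, and at least 21.2 in batch 2 against a floor of 3 reads on the wound bed plate. On the distal plates 7 and 8 cells had Vcl reads, and 1 cell held 78.5% and 64.7% of them. Vcl passed the detection limit only through the distal cells, which favoured this direction, and it was under the limit with thinned cells and at 25%. No other gene on this list met the rule in any of the 3 comparisons, Ctnnb1 included.

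Of 6 transcription factors linked to these genes, 5 were considered in each comparison. Snai2, a repressor of E-cadherin, met the rule as higher in wound bed than in control cells (1.57 and 1.2) and lower in distal than in wound bed cells (-1.10 and -1.49). Without the top cell of each plate these ratios were 0.66 and 1.02, and -0.39 and -1.48. Cdh1 did not meet the rule in either comparison (-4.20 and -0.79, and -0.04 and 1.06). Trp63, Grhl1, Grhl3 and Klf4 did not meet the rule in any comparison, and Zeb1 was under the detection limit.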

How the data were processed

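Whole-number read counts for 27003 gene symbols in 250 cells were deposited by the authors in 1 table, and all 250 columns matched a cell by name. Per the submitters' processing notes, Salmon 0.13.1, Seurat, R 4.0.3 and the mm10 (GRCm38) build were used. How transcript estimates were summed and rounded, and how reads were split between Dsg1a and its copies, is not given in the sources used here. Strand use is not given either.

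Reads were summed per plate, scaled by TMM over all 6 plates (edgeR 4.0.16, run in R 4.3.3), then compared within each batch as the log2 ratio of scaled CPM (counts per 1000000 reads) plus 1. No gene-wise test was run, since each region counted as 1 sample. A gene met the size rule when both ratios were at least 1 in size with the same sign, and at least 10% of cells of 1 or more compared regions had a read in each batch. Detection and Spearman's rho used cells thinned once to 10000 reads (Python 3.11.15), which left out 12 shallower cells, 4 distal, 7 wound bed and 1 control. Shares carry 95% exact (Clopper-Pearson) intervals, and a count of 0 was read as allowing 3 counts. Exon lengths and coordinates came from GENCODE M21, which matched 26417 symbols. Scripts were tested on simulated data.

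All 10 members were named. Other listed junction genes and factors were named where they met the size rule, and the closest copy of each member was named. Genes most alike a member were the 3 with the highest mean rho among genes with reads in at least 25% of thinned cells of every plate, leaving out predicted, pseudogene and ribosomal protein genes. The members and lists were chosen with earlier results of these data known. Of the listed genes, Dsg4, Lyz2, Dct and Col3a1 were not analysed here. Alternatives were other scaling, equal weight per cell, thinning, other cell sets, no mitochondrial reads, another pseudocount, other detection limits and each batch alone. Doublets were not called. The sort may have held several mice or 1, so differences between plates can be technical.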

Additional observations from a re-analysis of the deposited data

How the results depend on the processing

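The number of members meeting the size rule for distal against control cells, 1 as reported, was 0 with thinned cells and with a detection limit of 25%. It was 2 (Jup and Cdh3) in cells with at least 2000 genes, without cells over 500000 reads and without the top cell of each gene and plate, and 2 (Dsc2 and Cdh3) with no detection limit. Batch 1 alone gave 6 and batch 2 alone gave 2. In counts for a batch alone, here and below, the detection limit was applied in that batch only, so more genes were considered than in the report. For wound bed against control cells, 1 as reported, it was 2 (Dsg1a and Cdh1) without the top cells, and 3 in each batch alone (Dsc2 among them in batch 2). In cells with at least 2000 genes the count was 1, but the gene was Cdh1 and not Dsg1a. For distal against wound bed cells, 0 as reported, it was 1 with every cell weighted equally (Cdh3), in cells with at least 2000 genes (Cdh1) and without cells over 500000 reads (Cdh3), 2 in batch 1 alone and 4 in batch 2 alone (Dsc2 among them).

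Over all genes, 900, 928 and 935 met the rule for distal against control, wound bed against control and distal against wound bed. In the same order the counts were 416, 574 and 510 with thinned cells, 1496, 1719 and 1731 in cells with at least 2000 genes, 1905, 1992 and 1987 with no detection limit and 250, 246 and 247 with a limit of 25%. They were 4755, 4290 and 4196 in batch 1 alone and 3189, 3042 and 3874 in batch 2 alone. For distal against wound bed, 603 genes were higher and 332 lower with TMM, against 479 and 484 with total counts. Total counts in place of TMM moved the median ratio of wound bed against control cells by 0.37 and -0.11, and of distal against wound bed cells by -0.50 and 0.10. The cause of these shifts was not tested. Over the members' log2 ratios, 340 of the values under an alternative counted as unchanged. Another 25 came to meet the size rule, 3 no longer met it and 22 moved otherwise, and no called ratio changed sign. Unchanged meant a kept call or, for an uncalled ratio, a mean that moved by no more than the SD of its batch ratios. With 1 batch alone an uncalled ratio could not move by more than that SD, and other detection limits leave the ratios as they are. With 1 batch alone a gene also needed only 1 ratio past the size to meet the rule. These counts are therefore no measure of stability. The sign of an uncalled ratio was not checked, so it could differ among the unchanged values.

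Every ratio was taken within a batch. A test over the 6 plates with batch as a term was not run, because the plates are not known to be separate animals. Counting error and a few read-rich cells limit Dsc2, Cdh3, Jup and Vcl, and 1 sample per region limits every difference between regions.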

Other observations

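Mki67 and Top2a both met the size rule as higher in wound bed than in control cells, by log2 ratios of 1.56 and 1.69 for Mki67 and 1.30 and 3.51 for Top2a in batches 1 and 2. Without repeat-rich cells neither met it, at 0.16 and 1.64 for Mki67 and -0.10 and 3.46 for Top2a. Mki67 also did not meet it with every cell weighted equally (1.76 and 0.76) or with thinned cells (1.64 and 0.87), and Top2a did not in cells with at least 2000 genes (0.75 and 3.54). Across cells within a plate, Dsg1a and Mki67 had a mean rho of -0.27, which rested on few cells with Mki67 reads on some plates. Krt15, a keratin of basal and bulge cells, was lower in wound bed than in control cells (-2.59 and -2.55) and higher in distal than in wound bed cells (1.74 and 1.93).

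Of the 250 cells, 2 had no read of any of the 10 genes. One was a control cell of batch 2 with 113323 reads, of which the repeat-like predicted genes took 96.8% of the non-mitochondrial part. The other was a distal cell of batch 2 with 15227 reads and 1496 detected genes, and it held no read of the basal or the suprabasal markers. At 10000 reads a cell had a median of 6 of the 10 genes in distal cells, 6 in wound bed cells and 5 in control cells.

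The number of genes detected in a thinned cell moved with some members and not in 1 direction. Mean rho was 0.26 for Dsg3, 0.19 for Cdh1, 0.19 for Dsc3 and 0.18 for Pkp1, and -0.27 for Dsp and -0.23 for Perp.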
